A study of Rattus norvegicus with 48 samples.

Results

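The genes described here encode complement and coagulation proteins that the liver makes and secretes into plasma. A list of 38 such genes was looked up by symbol in the deposited expression table, and 32 of them had a probe, 1 probe each, among 22523 probes in all. No probe was found for C3, C5, C8b, Masp1, F9 or Fga, by symbol, gene identifier or accession, so the central complement component C3, the haemophilia B factor F9 and the alpha chain of fibrinogen are not described. The members were measured on 48 single-colour Illumina arrays, 1 for each sample, of laser-microdissected liver from male F-344 rats.

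Per the labels' protocols, rats received 150 mg/kg of the liver carcinogen diethylnitrosamine into the peritoneum and recovered for 2 weeks. They then ate 0.02% 2-acetylaminofluorene, which blocks division of ordinary hepatocytes, for 1 week, had a partial hepatectomy, and stayed on that diet for a further week. Nodules were taken 10 weeks after initiation, and the sample titles name 10 of them as positive and 10 as negative for keratin 19 (KRT19), a keratin of bile ducts and progenitor cells. The 4 adenomas and 5 early hepatocellular carcinomas (eHCC) date from 10 months and the 9 advanced carcinomas (aHCC) from 14 months. The 10 control livers carry the same protocol text as the lesions, and the sources used here give neither their age nor which of these treatments they had. The lesions also differ from one another in time after initiation, so lesion type and time cannot be told apart.

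Complement is a set of plasma proteases and binding proteins that tag and lyse microbes. It is started by antibody (C1s, C2, C4), by sugar-binding lectins (Mbl1, Mbl2, Masp2) or by the alternative pathway (Cfb, Cfd), and it ends in a pore built from C5 to C9. Coagulation is a second protease cascade, in which the contact factors (F12, F11, prekallikrein) and the vitamin K dependent factors (F7, F10, prothrombin) lead to thrombin and fibrin, while antithrombin, proteins C and S, and plasmin restrain or dissolve the clot. Hepatocytes are the main source of nearly all of these proteins, and their genes are controlled by liver transcription factors such as HNF1, HNF4 and C/EBP and, for some, by interleukin-6 through STAT3.

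Of the 32 members, 25 were detected in all 48 arrays and the other 7 in 47 arrays, so all 32 passed the filter on dim probes. Detected probes per array ranged from 8323 to 11434. Several members are so abundant that their probes lay near the top of the scale: Fgg was within 0.5 of the highest log2 intensity of any probe, 15.54, in 38 arrays, F2 and Fgb in 29 each and Plg in 15, so the change in these genes may be understated. The C4b probe cannot be separated here from a near-identical gene copy, and its values are uncertain in that respect. Liver identity was checked with 13 hepatocyte markers, of which 12 were tested and all were detected in at least 47 arrays. The highest correlation between any pair of arrays was 0.9958.

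Some samples stood apart or went against their labels. The titles put samples 1 to 5 and 20 to 24 among KRT19-positive nodules and samples 6 to 10 and 15 to 19 among KRT19-negative ones, but the Krt19 transcript was high in samples 1 to 5 (11.64 to 13.15 on the log2 scale) and 15 to 19 (11.49 to 12.96) and lower in 6 to 10 (7.69 to 10.5) and 20 to 24 (7.7 to 10.6). The nodules were therefore also split by sample number into Krt19-high (1 to 5 and 15 to 19) and Krt19-low (6 to 10 and 20 to 24), a split drawn up with the Krt19 values known. These are not the study's groups, and Krt19 itself is not tested in them. One advanced carcinoma, sample 29, differed from the other 8, and results are given with and without it. Sample numbers fall into sets of 12, each with its own controls, and values within a set stand beside the pooled ones, although the labels do not call these sets a batch. The labels do not tie lesions to animals. Some lesions may share an animal, and every p-value below, which is taken over lesions, would then be too small.

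The members were lower in most lesions, and the mean over all 32 members of the log2 difference from control gives the broad order. Control arrays lay between -0.25 and 0.14 on this measure and Krt19-low nodules between -0.3 and 0.04, so those groups overlapped. Krt19-high nodules lay between -1.07 and -0.44, adenomas between -1.38 and -0.68, and eHCC between -1.77 and -0.56, all below every control. The aHCC other than sample 29 lay between -1.07 and -0.28, also below every control, although the nearest values, -0.28 and -0.25, were close. Sample 29 was the lowest of all arrays at -2.65. In bulk samples like these, fewer hepatocytes in a sample and less RNA per hepatocyte cannot be told apart.

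**Figure D1:**
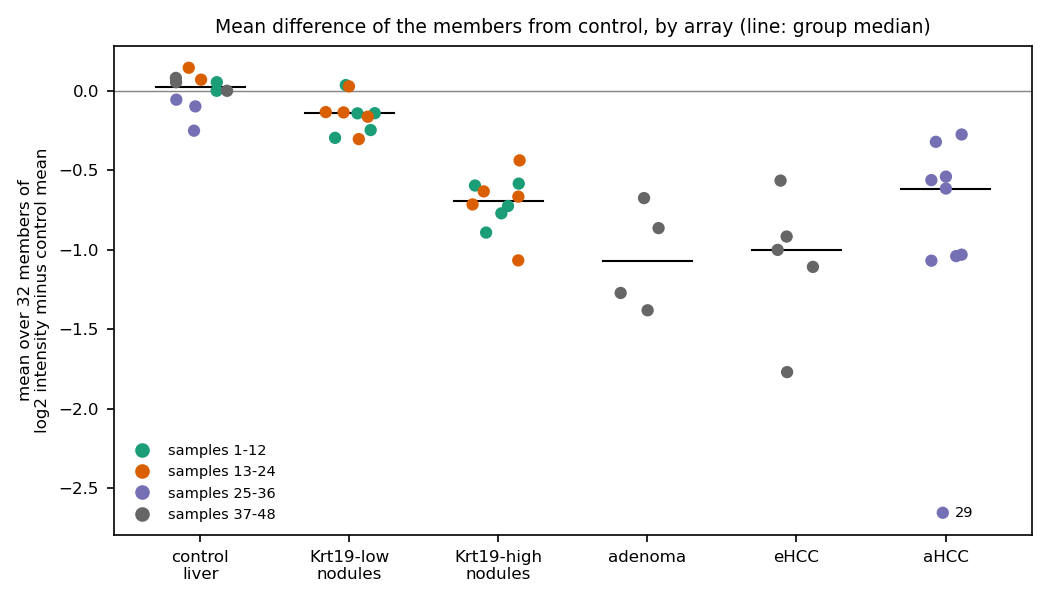
Each point is 1 array, and the y axis gives the mean over 32 members of the log2 intensity minus the control mean. Colours mark sets of 12 sample numbers, horizontal lines mark group medians, and the Krt19-high nodules, adenomas and carcinomas all lie below the lowest control at -0.25.

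Between lesion groups and control, limma called members at a Benjamini-Hochberg adjusted p under 0.05 over 13479 features. In adenomas 21 of 32 members were lower and 0 higher, where 12.6% of all features were lower and 13.5% higher, and the median log2 change of the members was -0.98 against -0.006 over all features. In eHCC 23 members were lower and 0 higher, where 15.1% of all features were lower and 17% higher, with a member median of -1.03. In aHCC 27 were lower and 0 higher (18.8% of all features were lower and 19.2% higher), with a median of -0.95. Without sample 29, 23 members were lower in aHCC and 0 higher (21.3% of all features were lower and 20.9% higher), and the median was -0.65. With sample 29 left out, the same fit called 28 members lower in adenoma, where it called 31.5% of all features in either direction, and 29 lower and 1 higher in eHCC (36.7%).

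Krt19-high nodules had 20 members lower and 0 higher, where 17.2% of all features were lower and 17.4% higher, with a median change of -0.66. Krt19-low nodules had 0 called in either direction by limma (5.07% of all features were lower and 5.28% higher), with a median of -0.14. At an unadjusted p under 0.05 there were 2 of 32 members, a smaller share than the 3133 of 13479 features. With sample 29 left out of the fit 3 members were lower (Mbl1, Mbl2 and Pros1). The share of all features called in that fit is not given here, so these 3 are not shown to be particular to the members. Counted by arrays, all 10 Krt19-high nodules lay below all 10 controls for 12 members (5.13% of all features did so), and this held for 0 members in Krt19-low nodules (0.475%). It held for 24 members in adenoma (7.92%), 20 in eHCC (6.97%) and 11 in aHCC (4.02%), and for 11 in aHCC without sample 29 (5.77%).

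**Figure D2:**
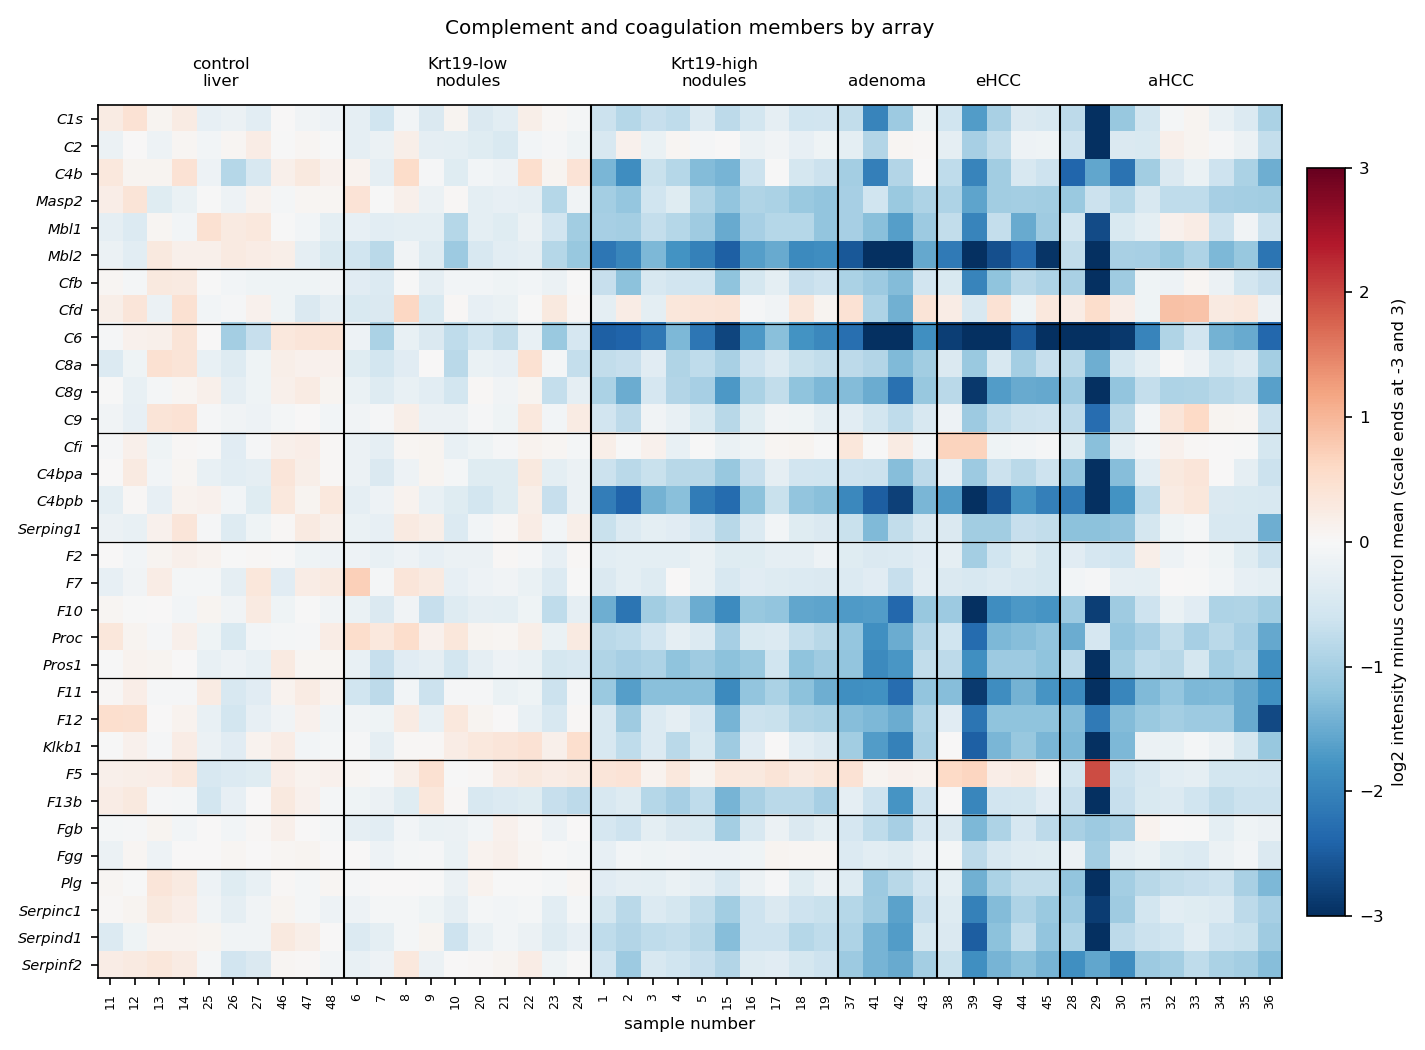
Rows are the 32 members in order of role and columns the 48 arrays by group, with sample numbers below. Colour gives the log2 intensity minus the control mean, with the scale ended at -3 and 3. Mbl2, C6 and C4bpb show the deepest blue from Krt19-high nodules to eHCC, and sample 29 stands out among aHCC. Krt19-low nodules are mostly nearer 0 than Krt19-high nodules, with 27 of 32 members below 0 in the fitted change, down to -0.6.

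Within sets the counts in Krt19-high nodules, adenoma and eHCC were close to the pooled ones, with some members changed, and the count in aHCC was lower. Against the 2 controls of their own set, Krt19-high nodules had 22 members lower among samples 1 to 12 (18% of all features were called in either direction) and 26 lower among samples 13 to 24 (31.3%). Of the 20 pooled calls, 16 were among the former, without C8a, F2, F7 and Serping1, and all 20 among the latter. Krt19-low nodules had 0 (2.66%) and 2 (9.57%), the latter being Mbl2 and F13b. Against the 3 controls of samples 37 to 48, adenomas had 22 members lower (24.4%) and eHCC 26 (29.9%). These held 18 of the 21 pooled calls in adenoma, without C4b, F2 and Fgg, and all 23 in eHCC. Against controls 25 to 27, aHCC had 4 members lower, namely Masp2, F11, Proc and Serpinf2 (7.98%), and 15 without sample 29 (20.1%), of which 14 were among the 23 pooled calls. The 9 not called there were C1s, C4b, C6, C8a, Cfb, F2, F5, Klkb1 and Serping1. With the sets as a block, 16 members were lower in Krt19-high nodules (25.5%), 18 in adenoma (20.2%), 20 in eHCC (25.6%) and 8 in aHCC (15.4%).

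**Figure D3:**
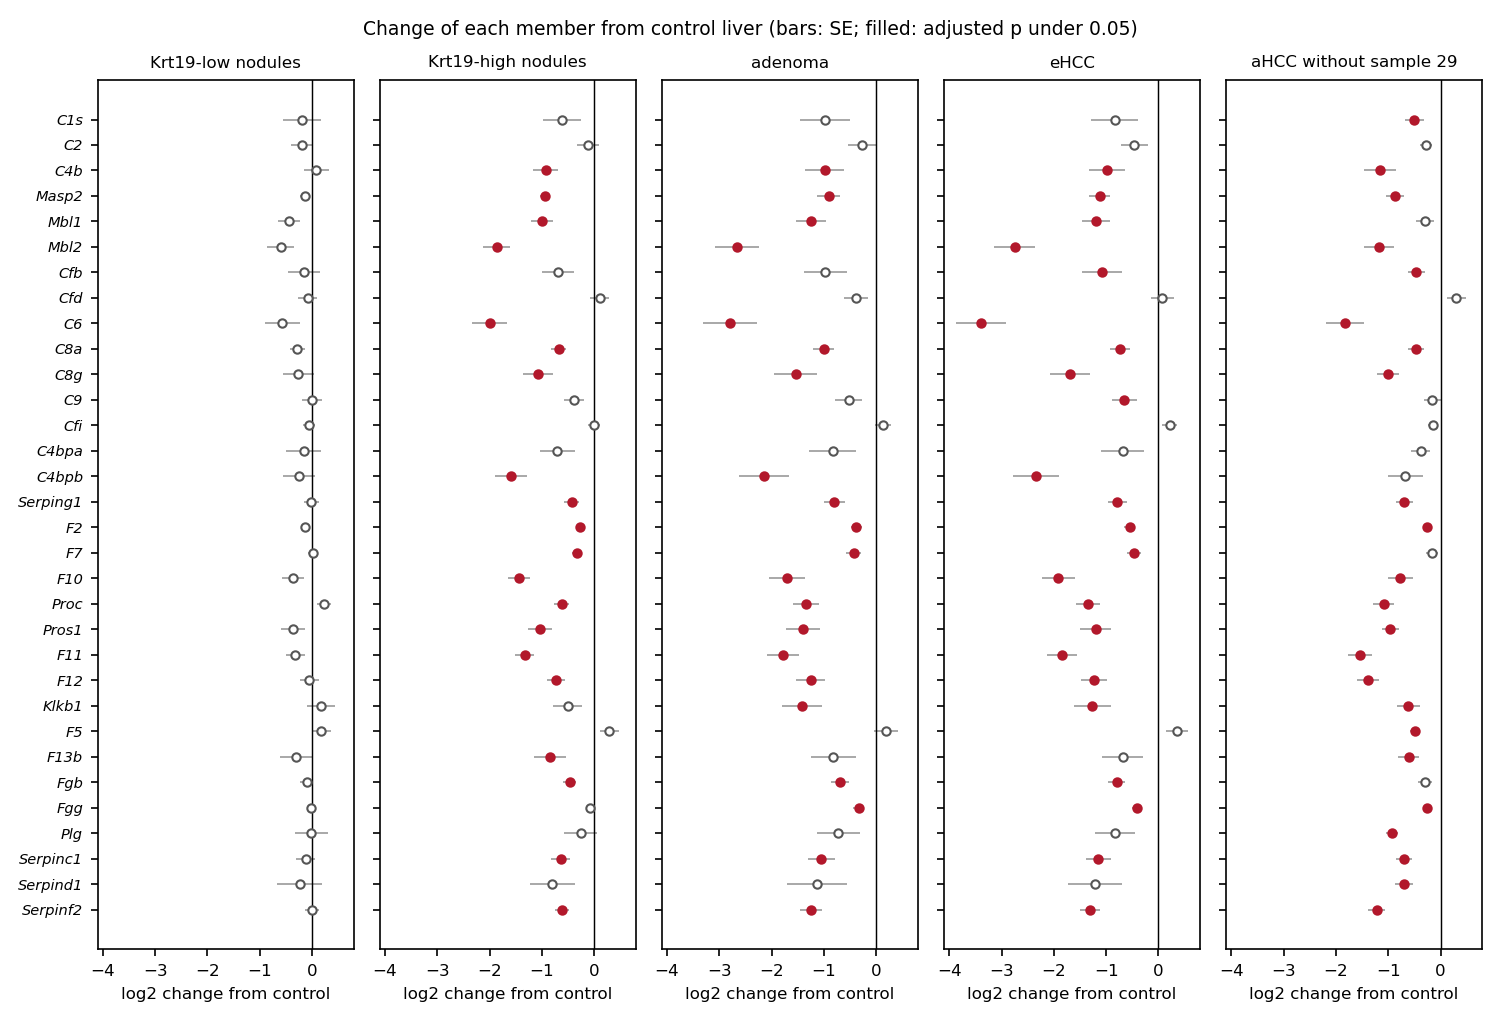
Points give the log2 change of each member from control liver in 5 lesion groups, with bars of 1 SE, and filled points passed an adjusted p under 0.05. The aHCC panel is from the fit without sample 29 and the other panels from fits of all 48 arrays. Medians over members are -0.14, -0.66, -0.98, -1.03 and -0.65 from left to right.

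The members with the widest changes were C6, Mbl2, C4bpb and, among clotting factors, F10 and F11. They come from different branches: C6 is a component of the lytic pore, Mbl2 a mannose-binding lectin that starts the lectin pathway, C4bpb the beta chain of C4b-binding protein, which restrains the classical pathway and carries protein S in plasma, F10 the protease that activates prothrombin, and F11 a contact-pathway protease. Promoters are shown for the 2 members with the widest called change in aHCC against control, C6 and F11, and for the next widest in Krt19-high against Krt19-low nodules, C4bpb and Mbl2. Each is the 250 bases before the transcript start used in the RefSeq promoter table for the GRCr8 assembly, 5′ to 3′ on the strand of the gene. For F11 and C4bpb that start is the 5′ end of the gene's annotated span, as it was for 19 of 30 members. For C6 it lies 37 bases and for Mbl2 1170 bases inside the span, so the Mbl2 window lies within the annotated gene. Capitals mark matches, on either strand, to the letters searched: GTTAAT (HNF1), TTGCNNAA (C/EBP), CTGGGAA (the interleukin-6 type II element), CAAAGTCCA (HNF4) and TTCNNNGAA (STAT).
C6, chr2:55573383-55573632, plus strand: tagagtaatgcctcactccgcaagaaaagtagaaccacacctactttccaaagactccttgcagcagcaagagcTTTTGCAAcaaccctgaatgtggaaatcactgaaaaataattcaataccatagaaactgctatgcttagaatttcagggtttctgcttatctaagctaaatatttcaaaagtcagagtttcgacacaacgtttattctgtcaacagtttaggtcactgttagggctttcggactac
Mbl2, chr1:237430793-237431042, plus strand: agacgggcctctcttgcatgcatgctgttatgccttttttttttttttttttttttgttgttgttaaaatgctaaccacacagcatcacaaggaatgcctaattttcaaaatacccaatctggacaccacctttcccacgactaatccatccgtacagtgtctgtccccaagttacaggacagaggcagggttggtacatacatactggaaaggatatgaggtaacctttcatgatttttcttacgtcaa
C4bpb, chr13:44683782-44684031, minus strand: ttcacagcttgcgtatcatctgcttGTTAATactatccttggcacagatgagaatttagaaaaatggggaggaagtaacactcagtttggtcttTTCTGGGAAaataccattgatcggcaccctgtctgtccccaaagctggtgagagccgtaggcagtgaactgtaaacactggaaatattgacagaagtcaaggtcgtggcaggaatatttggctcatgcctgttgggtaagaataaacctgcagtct
F11, chr16:53720252-53720501, plus strand: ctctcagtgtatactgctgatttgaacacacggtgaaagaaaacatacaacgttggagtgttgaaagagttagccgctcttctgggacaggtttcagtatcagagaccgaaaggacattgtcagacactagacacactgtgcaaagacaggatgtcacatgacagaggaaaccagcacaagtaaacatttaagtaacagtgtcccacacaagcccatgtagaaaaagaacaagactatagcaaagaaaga

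The C6 window held 1 match, TTTTGCAA to the C/EBP letters, 176 bases before the transcript start of the promoter table. The C4bpb window held GTTAAT 225 bases before the start and TTCTGGGAA, where the STAT letters and CTGGGAA overlap, 156 bases before it. The Mbl2 and F11 windows held none of these letters. Of the 38 listed genes, 30 had a promoter entry, and 10 of those 30 held GTTAAT, against 6.45% of 33469 rat promoter windows of the same length. The C/EBP letters were in 10 of 30 (9.22% of all), CTGGGAA in 8 (9.56%), the STAT letters in 6 (7.67%) and CAAAGTCCA in 0 (0.338%). These are descriptions of letters, with no test and no measurement of binding.

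C6 had the widest change in this family. In control liver its log2 intensity ran from 11.41 to 12.82 with a median of 12.56, in Krt19-low nodules from 11.3 to 12.27 (median 11.87), and in Krt19-high nodules from 9.66 to 11.18 (median 10.39). It read 10.16, 9.0, 8.76 and 10.58 in the 4 adenomas, and 9.59, 8.02, 8.62, 9.91 and 9.0 in the 5 eHCC. In the 8 aHCC other than sample 29 it ran from 9.41 to 11.85 with a median of 10.68. Every Krt19-high nodule, adenoma and eHCC lay below every control, while aHCC overlapped with control. C6 fell by 3.40 ± 0.48 (SE, n = 5 against 10; limma, adjusted p = 3.90e-07) in eHCC, a 10.5-fold drop, and by 2.80 ± 0.52 in adenoma (n = 4; limma, adjusted p = 5.51e-05). It fell by 2.00 ± 0.34 in Krt19-high nodules (n = 10; limma, adjusted p = 5.36e-06). In aHCC it fell by 2.19 ± 0.40, and by 1.83 ± 0.36 without sample 29 (limma, adjusted p = 4.93e-05). With the sets as a block the aHCC change was -1.62 ± 0.59 and missed the threshold (limma, adjusted p = 0.0555), and controls 26 and 27 had the lowest control values, 11.41 and 11.74.

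**Figure D4:**
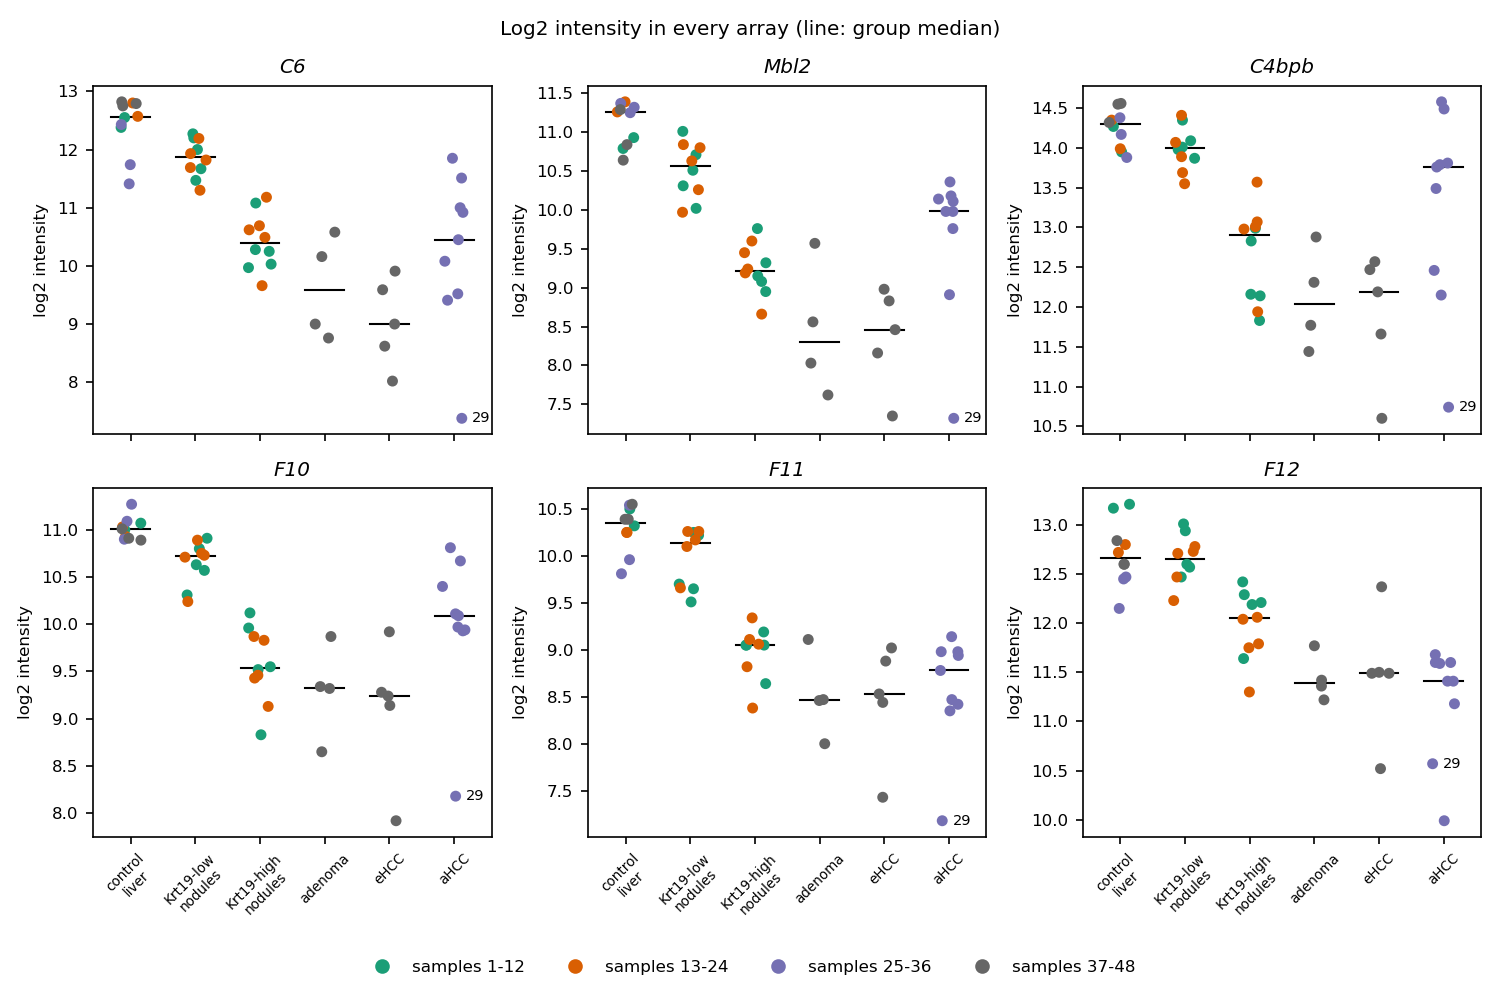
Each panel shows the log2 intensity of 1 member in all 48 arrays by group, coloured by set of 12 sample numbers, with lines at group medians and sample 29 marked. For C6 the control median is 12.56 and the eHCC median 9.0, and for F12 the step from control to adenoma, eHCC and aHCC is wider than that to Krt19-high nodules.

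Mbl2 ran from 10.64 to 11.39 in control (median 11.25), from 9.97 to 11.01 in Krt19-low nodules (median 10.57) and from 8.66 to 9.76 in Krt19-high nodules (median 9.21). The adenomas read 8.56, 7.62, 8.03 and 9.57, and the eHCC 8.98, 7.35, 8.46, 8.83 and 8.16. The aHCC other than sample 29 ran from 8.91 to 10.36 (median 10.05). No Krt19-high nodule, adenoma or carcinoma overlapped with control. Mbl2 fell by 1.87 ± 0.26 in Krt19-high nodules (n = 10; limma, adjusted p = 9.62e-08), by 2.66 ± 0.41 in adenoma (n = 4; limma, adjusted p = 4.21e-06) and by 2.75 ± 0.38 in eHCC (n = 5; limma, adjusted p = 2.99e-07). The drop in aHCC was smaller, by 1.47 ± 0.32 with sample 29 and 1.18 ± 0.28 without it (limma, adjusted p = 0.000733). Against the controls of its own set the change with sample 29 was -1.67 ± 0.52 and was not called (limma, adjusted p = 0.0758), and without sample 29 it was -1.39 ± 0.23 and was (limma, adjusted p = 0.00116).

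The other members of the starting pathways moved less. Mbl1, the other mannose-binding lectin, fell by 1.00 ± 0.21 in Krt19-high nodules, 1.25 ± 0.29 in adenoma and 1.20 ± 0.27 in eHCC. Masp2, the protease that the lectins activate, fell by 0.94 ± 0.10 in Krt19-high nodules and by 0.88 ± 0.17 in aHCC without sample 29. C4b, the component cleaved by C1s and Masp2, fell by 0.93 ± 0.24 in Krt19-high nodules, and was 0.08 ± 0.24 from control in Krt19-low nodules. For C1s the change in Krt19-high nodules was -0.62 ± 0.36 and in eHCC -0.84 ± 0.44, neither called with all arrays and both called with sample 29 out of the fit (limma, adjusted p = 0.00188 and 0.00135). Within sets C1s was called in Krt19-high nodules, at -1.01 and -0.72, but not in eHCC, at -0.75 (limma, adjusted p = 0.144). C2, the protease subunit that joins C4b, was called in none of the nodule, adenoma or eHCC comparisons with all arrays, and in eHCC alone with sample 29 out of the fit (limma, adjusted p = 0.00575). Its means there lay between -0.46 and -0.12 of control. In the alternative pathway, the protease Cfb fell by 1.08 ± 0.38 in eHCC and by 0.46 ± 0.17 in aHCC without sample 29. Cfd, which cleaves Cfb and is best known as an adipocyte product, was called in no comparison with control, with changes from -0.39 in adenoma to 0.33 in aHCC.

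In the terminal pathway C6 was joined by both measured chains of C8. The gamma chain, C8g, ran from 13.54 to 14.05 in control, 12.09 to 13.3 in Krt19-high nodules, 11.57 to 12.68 in adenoma and 10.91 to 13.0 in eHCC, with no overlap between control and these lesions. It fell by 1.08 ± 0.29, 1.54 ± 0.41 and 1.68 ± 0.38 in those lesions. The alpha chain, C8a, fell by 0.68 ± 0.14, 1.01 ± 0.21 and 0.74 ± 0.19. C9, which completes the pore, fell by 0.65 ± 0.24 in eHCC and changed by -0.53 ± 0.26 in adenoma and -0.39 ± 0.19 in Krt19-high nodules, which were not called with all arrays and were with sample 29 out of the fit (limma, adjusted p = 0.033 and 0.0203).

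The complement inhibitors measured include both chains of C4b-binding protein, C4bpb and C4bpa. C4bpb ran from 13.88 to 14.56 in control (median 14.29), 13.55 to 14.41 in Krt19-low nodules (median 14.0) and 11.83 to 13.57 in Krt19-high nodules (median 12.91). It read 12.31, 11.77, 11.44 and 12.88 in the adenomas and 12.57, 10.6, 11.66, 12.47 and 12.19 in the eHCC. In aHCC other than sample 29 it ran from 12.15 to 14.58 with a median of 13.77, so aHCC and Krt19-low nodules overlapped with control, and Krt19-high nodules, adenoma and eHCC did not. C4bpb fell by 1.59 ± 0.30 in Krt19-high nodules (n = 10; limma, adjusted p = 3.99e-05), 2.14 ± 0.47 in adenoma (n = 4; limma, adjusted p = 0.000526) and 2.35 ± 0.44 in eHCC (n = 5; limma, adjusted p = 3.94e-05). In aHCC it fell by 0.99 ± 0.37 (limma, adjusted p = 0.0295), but without sample 29 the change was -0.68 ± 0.33 and was not called (limma, adjusted p = 0.0988).

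C4bpa, the alpha chain, changed by -0.71 ± 0.33 in Krt19-high nodules and -0.69 ± 0.41 in eHCC, neither called with all arrays. With sample 29 out of the fit both were (limma, adjusted p = 0.000132 and 0.00659), and so were the changes against controls of the same set, -0.90 and -0.65 in Krt19-high nodules, -1.02 in adenoma and -0.87 in eHCC. In aHCC it fell by 0.90 with sample 29 and changed by -0.38 without it, which was not called. The difference between the chains was not tested. Serping1, the C1 inhibitor, which also blocks the contact proteases, fell by 0.43 ± 0.14 in Krt19-high nodules, 0.80 ± 0.20 in adenoma and 0.79 ± 0.19 in eHCC. Cfi, the protease that degrades C3b and C4b, was called in none of the comparisons with control, and its group medians ran only from 14.49 to 14.68 over the 6 title groups.

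In the pooled fits all 5 measured vitamin K dependent factors were called lower in Krt19-high nodules, adenoma and eHCC, and 4 of the 5 in aHCC without sample 29. F10 was the widest. Its control values ran from 10.89 to 11.27 (median 11.01), Krt19-low nodules from 10.24 to 10.91 (median 10.72) and Krt19-high nodules from 8.83 to 10.12 (median 9.53). It read 9.32, 9.34, 8.65 and 9.87 in the adenomas, and 9.92, 7.92, 9.14, 9.28 and 9.24 in the eHCC. In aHCC other than sample 29 it ran from 9.93 to 10.81 (median 10.1), below every control. F10 fell by 1.44 ± 0.21 in Krt19-high nodules (n = 10; limma, adjusted p = 3.61e-07), 1.71 ± 0.35 in adenoma (n = 4; limma, adjusted p = 0.000175) and 1.91 ± 0.32 in eHCC (n = 5; limma, adjusted p = 7.47e-06). In aHCC it fell by 1.00 ± 0.27, and by 0.77 ± 0.24 without sample 29 (limma, adjusted p = 0.00866).

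Proc, the anticoagulant protein C, ran from 11.75 to 12.55 in control and from 12.01 to 12.75 in Krt19-low nodules, and lay between 11.22 and 11.96 in Krt19-high nodules and between 9.92 and 11.61 in eHCC. It fell by 0.62 ± 0.14 in Krt19-high nodules and by 1.34 ± 0.25 and 1.35 ± 0.23 in adenoma and eHCC. Pros1, the protein S that serves protein C as a cofactor, fell by 1.03 ± 0.23, 1.40 ± 0.33 and 1.20 ± 0.30 in the same lesions. Prothrombin, F2, fell by 0.28 ± 0.08, 0.39 ± 0.10 and 0.55 ± 0.10, near the top of the scale. F7, which starts clotting with tissue factor, fell by 0.34 ± 0.09, 0.44 ± 0.14 and 0.47 ± 0.13.

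F11, a contact-pathway protease that activates F9, fell in Krt19-high nodules, adenoma, eHCC and aHCC. It ran from 9.81 to 10.55 in control (median 10.35), 9.51 to 10.26 in Krt19-low nodules (median 10.13) and 8.38 to 9.34 in Krt19-high nodules (median 9.05). The adenomas read 8.46, 8.47, 8.0 and 9.11, the eHCC 9.02, 7.43, 8.44, 8.88 and 8.53, and the aHCC other than sample 29 ran from 8.35 to 9.14 (median 8.86). F11 was below every control in all of these groups but the Krt19-low nodules. It fell by 1.33 ± 0.18 in Krt19-high nodules (n = 10; limma, adjusted p = 9.29e-08), 1.78 ± 0.31 in adenoma (n = 4; limma, adjusted p = 2.06e-05) and 1.84 ± 0.29 in eHCC (n = 5; limma, adjusted p = 2.01e-06). In aHCC it fell by 1.71 ± 0.24, and by 1.54 ± 0.22 without sample 29 (limma, adjusted p = 3.37e-07).

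F12, the protease that starts the contact pathway, ran from 12.15 to 13.21 in control (median 12.66), 12.23 to 13.01 in Krt19-low nodules (median 12.65) and 11.3 to 12.42 in Krt19-high nodules (median 12.05). It read 11.42, 11.36, 11.22 and 11.77 in adenoma and 12.37, 10.52, 11.49, 11.5 and 11.49 in eHCC. In aHCC other than sample 29 it ran from 9.99 to 11.68 (median 11.5). Only adenoma and aHCC lay wholly below control. It fell by 0.73 ± 0.18 in Krt19-high nodules, 1.26 ± 0.27 in adenoma, 1.23 ± 0.25 in eHCC and 1.39 ± 0.21 in aHCC without sample 29 (limma, adjusted p = 7.67e-07). Klkb1, plasma prekallikrein, fell by 1.43 ± 0.38 in adenoma, 1.27 ± 0.35 in eHCC and 0.62 ± 0.22 in aHCC without sample 29, and changed by -0.51 ± 0.27 in Krt19-high nodules, which was not called with all arrays and was with sample 29 out of the fit (limma, adjusted p = 0.0251).

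The fibrinogen chains, plasminogen and F13b make, dissolve or crosslink the clot itself. Fgb, the beta chain, fell by 0.47 ± 0.12 in Krt19-high nodules, 0.70 ± 0.18 in adenoma and 0.80 ± 0.16 in eHCC, and Fgg, the gamma chain, by 0.34 ± 0.10 in adenoma and 0.42 ± 0.09 in eHCC. Plg, the precursor of plasmin, ran from 14.73 to 15.46 in control, from 14.61 to 15.06 in Krt19-high nodules and from 13.75 to 14.45 in aHCC other than sample 29. It fell by 0.93 ± 0.11 in aHCC without sample 29 (n = 8; limma, adjusted p = 5.08e-09). In Krt19-high nodules, adenoma and eHCC Plg was not called with all arrays and was called lower with sample 29 out of the fit. Within sets it was also called lower, at -0.30 and -0.57 in Krt19-high nodules, -0.73 in adenoma and -0.84 in eHCC. F13b, the carrier subunit of the fibrin crosslinker, fell by 0.85 ± 0.31 in Krt19-high nodules and by 0.61 ± 0.20 in aHCC without sample 29.

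Of the clotting inhibitors, Serpinc1, antithrombin, fell by 0.64 ± 0.19 in Krt19-high nodules, 1.05 ± 0.26 in adenoma and 1.15 ± 0.24 in eHCC. Serpinf2, the plasmin inhibitor, ran from 13.3 to 14.2 in control (median 13.91), 13.65 to 14.19 in Krt19-low nodules (median 13.87) and 12.77 to 13.52 in Krt19-high nodules (median 13.28). It read 12.77, 12.48, 12.35 and 12.85 in adenoma, 13.2, 12.03, 12.47, 12.63 and 12.48 in eHCC, and 12.01 to 13.11 (median 12.81) in aHCC other than sample 29. Adenoma, eHCC and aHCC lay below every control, and Krt19-high nodules overlapped with it. Serpinf2 fell by 0.62 ± 0.13 in Krt19-high nodules and by 1.23 ± 0.17 in aHCC without sample 29 (n = 8; limma, adjusted p = 1.06e-07). Serpind1, heparin cofactor II, changed by -0.80 ± 0.43 in Krt19-high nodules and -1.21 ± 0.52 in eHCC, neither called with all arrays. Both were called with sample 29 out of the fit (limma, adjusted p = 1.68e-05 and 6.36e-06) and within sets, at -0.52 and -0.92 in Krt19-high nodules and -1.37 in eHCC. It fell by 0.70 ± 0.18 in aHCC without sample 29.

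F5, the cofactor that F10 needs to activate prothrombin, did not go with the rest. It ran from 12.0 to 12.79 in control, 12.56 to 12.89 in Krt19-high nodules, 12.55 to 12.9 in adenoma and 12.54 to 13.11 in eHCC. In aHCC other than sample 29 it ran from 11.82 to 12.19. Its changes of 0.29 ± 0.18 in Krt19-high nodules and 0.35 ± 0.22 in eHCC were not called with all arrays. Without sample 29 in the fit, the same changes were called higher (limma, adjusted p = 0.00697 and 0.00798). Against the controls of their own set they were not: Krt19-high nodules changed by 0.10 ± 0.14 and 0.06 ± 0.08, and eHCC by 0.22 ± 0.13 (limma, adjusted p = 0.718, 0.657 and 0.255). In aHCC without sample 29 F5 fell by 0.50 ± 0.09 (n = 8; limma, adjusted p = 2.74e-05), but the 3 controls of the same set read only 12.0, 12.05 and 12.11, and against those 3 the change was -0.08 ± 0.09.

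The split of the nodules gave 17 members lower and 0 higher in Krt19-high than in Krt19-low nodules, where 9.01% of all features were lower and 10.2% higher, and the median difference was -0.55. All 10 Krt19-high nodules lay below all 10 Krt19-low nodules for 7 members, Mbl2, C6, F10, Proc, F11, Serpinc1 and Serpinf2 (1.17% of all features did so). The widest differences were in C6 (-1.43 ± 0.34; limma, adjusted p = 0.00174), C4bpb (-1.34 ± 0.30; limma, adjusted p = 0.00113), Mbl2 (-1.27 ± 0.26; limma, adjusted p = 0.000295) and F10 (-1.08 ± 0.21; limma, adjusted p = 0.000173). Without sample 29 in the fit, 25 members were lower (24.9% of all features were called in either direction). The count fell to 11 without nodule sample 8 or without sample 15. Samples 1 to 5 had 10 members lower than samples 6 to 10 (3.55% of all features, and 4.22% were higher), and samples 15 to 19 had 7 lower than samples 20 to 24 (2.7%, and 3.64% were higher). Those 10 became 5 without sample 2 and 3 without sample 8, and those 7 became 2 without sample 15 and 4 without any 1 of samples 18 to 22.

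By label, nodules titled KRT19-positive had 8 members lower than control (8.98% of all features were lower and 9.69% higher) and those titled KRT19-negative 9 (9.7% lower and 9.83% higher), with 0 members higher in either. Without sample 15 the 9 became 5. C6, Mbl2 and F10 were called under both labels, at -1.37, -1.23 and -0.88 in the positive and -1.20, -1.24 and -0.92 in the negative nodules. With the sets as a block none of these 6 changes was called (limma, adjusted p from 0.0529 for C6 in the positive to 0.11 for F10 in the positive nodules). Against the controls of their own set, the nodules titled positive among samples 13 to 24 and those titled negative among samples 1 to 12, which had the lower Krt19 transcript, were called for none of the 3 except Mbl2 in samples 13 to 24. C6 read -0.90 within samples 13 to 24 for the positive label and -0.54 within samples 1 to 12 for the negative label. The labels differed from each other in 0 members by limma and in 0% of all features. At an unadjusted p under 0.05 they differed in 0 members and in only 224 of 13479 features, so this does not set the members apart. For C6 the label difference was -0.17, with a 95% interval from -0.96 to 0.62. Within samples 1 to 12 the nodules titled KRT19-positive had 20 members lower than those titled KRT19-negative (11.5% of all features were called in either direction), and within samples 13 to 24 they had 27 higher (25.8%).

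Adenoma and eHCC, both from 10 months, differed in 0 members by limma and in 0% of all features. At an unadjusted p under 0.05 they differed in 0 members and in only 173 of 13479 features, so this does not set the members apart. For C6 the difference of eHCC from adenoma was -0.59, with a 95% interval from -1.78 to 0.59, and for Mbl2 it was -0.09, from -1.04 to 0.86, so differences of these sizes were not detectable with 4 and 5 arrays. Between aHCC and eHCC, 3 of 32 members were higher in aHCC (7.37% of all features) and 1 lower (8.46%), counts close to those shares. The higher ones were C4bpb, by 1.35 ± 0.45 (limma, adjusted p = 0.0313), Mbl2, by 1.28 ± 0.39 (limma, adjusted p = 0.0193), and F10, by 0.91 ± 0.33 (limma, adjusted p = 0.0488). Cfi, the lower one, fell by 0.48 ± 0.14 (limma, adjusted p = 0.0159). Without sample 29, 9 members were higher in aHCC, C6 among them at 1.57 ± 0.43, and 2 lower, Cfi and F5 (22.9% of all features were called in either direction). The 4 calls became 0 without eHCC sample 39, and 2 without eHCC sample 40 or without any 1 of aHCC samples 32, 33 and 35. These groups lie in different sets of sample numbers, and with the sets as a block 0 members were called by limma, as were 0.00742% of all features.

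Against all nodules together, aHCC had 14 members lower and 0 higher (14.6% of all features were lower and 16.1% higher), with Plg at -1.31 ± 0.28, F12 at -1.08 ± 0.18 and Serpinf2 at -0.95 ± 0.14 the widest. Without sample 29 the Plg difference was -0.79 ± 0.10, behind F12, Serpinf2 at -0.91 ± 0.15 and Proc at -0.89 ± 0.17. There were then 9 lower and 1 higher, Mbl1, close to the share of all features called in either direction (36.5%). With the sets as a block there were 0 members (0.0816% of all features).

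Sample 29, an advanced carcinoma, had a pattern of its own. Its median correlation with its own group was 0.857, and that of every other array at least 0.963. Of the 32 members, 22 lay below all the other 8 aHCC, 8 lay within their range, and F5 and Proc lay above it. For 19 members sample 29 was the lowest of all 48 arrays, and for 11 it was at least 3 below the median of the other aHCC on the log2 scale. These counts were made for the members only, and the share of all features as extreme in sample 29 was not counted. With the whole array standing apart, they are not shown to be particular to the members. Serpind1 read 7.22 where the other aHCC ran from 13.11 to 13.85, C1s 8.59 (13.02 to 14.24), C4bpa 9.34 (13.09 to 14.72), Plg 9.49 (13.75 to 14.45) and Cfb 10.33 (13.99 to 15.1). F5, at 14.43, was the highest of all 48 arrays. F2, at 14.82, and Serpinf2, at 12.31, lay within the range of the others. The albumin transcript read 15.41, above the other aHCC (14.39 to 14.99), haptoglobin 10.71, below them (14.45 to 15.22), and Krt19 13.59, above them (9.08 to 13.02).

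**Figure D5:**
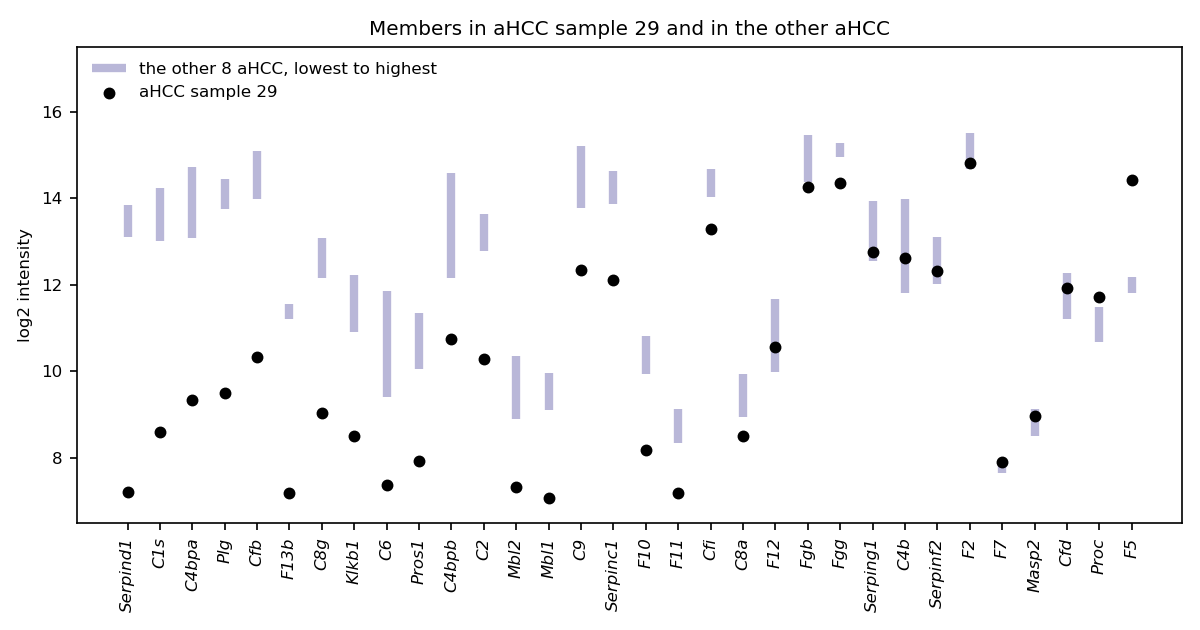
For each of the 32 members, the bar spans the lowest to highest log2 intensity of 8 aHCC and the point is sample 29, ordered by its difference from the median of the others. Serpind1, at 7.22, lies farthest below its bar and F5, at 14.43, farthest above.

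Markers of other cell types also differed between the groups. The summed intensity of 7 tested biliary and progenitor markers of 10 listed, Krt19 among them, ran from 7553 to 10017 in control. It ran from 11525 to 26123 in Krt19-low nodules and from 30845 to 45997 in Krt19-high nodules. Of the 7 markers, 0 were lower and 4 higher in Krt19-high nodules, where 17.2% of all features were lower and 17.4% higher. The nodule split was drawn up with the Krt19 values known. This sum and count hold Krt19, so they are no separate evidence of a difference between the nodule groups. Krt7, another bile duct keratin, was detected in only 10 of the 48 arrays. The sum ran from 20330 to 63813 in adenoma and 20254 to 87120 in eHCC. Sums over 6 of 9 stellate and fibroblast markers ran from 2399 to 4611 in control, 3579 to 8322 in Krt19-low nodules, 7141 to 15593 in Krt19-high nodules and 5562 to 25554 in eHCC. Sums over 12 hepatocyte markers ran from 243126 to 318526 in control, 295179 to 336671 in Krt19-low nodules, 204391 to 293777 in Krt19-high nodules and 157125 to 243508 in eHCC. Of those 12, 3 fell in Krt19-high nodules (17.2% of all features were lower) and 6 in eHCC (15.1%). Red cell marker sums were 30243 to 84154 in control, 7540 to 19227 in Krt19-high nodules, 9688 to 26096 in Krt19-low nodules, 10314 to 29256 in eHCC and 31083 to 92124 in aHCC. They lay below control in both nodule groups and eHCC and overlapped with control in aHCC. The part of these cells in the members' changes was not tested.

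Genes of the same pathways outside the list were read against the share of all features, 15.1% lower and 17% higher in eHCC and 17.2% and 17.4% in Krt19-high nodules. Of 16 tested other complement genes of 25 listed, 4 fell and 2 rose in eHCC, with a median change of -0.11, close to those shares. Vtn, vitronectin, which binds the terminal complex, fell by 2.19 ± 0.57, and C1rl fell by 0.90 ± 0.16, while C1qbp, a mitochondrial protein that binds C1q, rose by 1.03 ± 0.13. In Krt19-high nodules 3 fell and 4 rose, also close to the background, among them Clu, clusterin, which rose by 0.71 ± 0.10. Of 25 other coagulation and fibrinolysis genes of 32 listed, 8 fell and 6 rose in eHCC, with a median of -0.14. The liver-made protease Habp2 fell by 3.53 ± 0.43, and the fibrinogen-like Fgl1 fell by 3.39 ± 0.59. Anxa2, annexin A2, a cell-surface receptor for plasminogen, rose by 3.44 ± 0.50, and the thrombin receptor F2r by 1.04 ± 0.15. In aHCC without sample 29, Tfpi, the inhibitor of tissue factor, rose by 1.15 ± 0.13.

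Other secreted liver proteins and the regulators were read the same way. Of 9 apolipoproteins tested of 14 listed, 6 fell and 0 rose in eHCC, with a median of -2.36, and Apoc2, the cofactor of lipoprotein lipase, fell by 3.30 ± 0.53. In Krt19-low nodules 1 of 9 fell, Apom, by 0.97 ± 0.24. Of 16 acute phase genes of 18 listed, 2 of which (Fgb and Fgg) are members, 8 fell and 1 rose in eHCC. Saa4 fell by 2.66 ± 0.42 and Crp by 1.75 ± 0.47, while Lbp, which binds bacterial lipopolysaccharide, rose by 2.41 ± 0.37. Of 15 transcription and cytokine regulators of 20 listed, 8 fell and 0 rose in eHCC, with a median of -0.48. Onecut1, the liver factor HNF6, fell by 3.09 ± 0.55, and Il6r, the interleukin-6 receptor, by 1.25 ± 0.24. In Krt19-high nodules the bile acid receptor Nr1h4 fell by 1.34 ± 0.17, and in aHCC without sample 29 Cebpa, encoding C/EBP alpha, fell by 1.15 ± 0.21.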

How the data were processed

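Messenger RNA was measured on 48 Illumina rat arrays, 1 for each microdissected sample. The deposited table gives an intensity and a detection p-value per probe (22523) and array. The submitters' processing notes name BeadStudio 3.0.19.0. Although named as non-normalized, the deposited intensities had nearly equal medians, from 159.0 to 159.6, and a lowest value of 96.8. They thus appear already normalized between arrays, on a linear scale and without background subtraction, which shrinks changes of dim probes. These values do not settle the method of normalization. The second deposited table, the intensity values of the series matrix, was identical, and detection p-values came in steps of 1 in 825. Array number, not counting depth, limits the precision.

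Intensities were taken to log2. Probes with a detection p under 0.05 in at least 4 arrays were kept (13679), the brightest probe stood for a gene, and 9273 genes and 4206 unnamed probes were fitted, 13479 features in all. Gene names come from the platform annotation in the sources used here: 13793 probes had 1 symbol, 0 several and 8730 none, and 13752 gene identifiers matched RefSeq. Title groups were fitted in 1 model with limma 3.58.1 (lmFit and eBayes) in R 4.3.3, nodules by label and sample number in a second, and aHCC without sample 29 in another. Adjustment was by Benjamini-Hochberg over the 13479 features of each comparison, with a threshold of 0.05. The fit was tested on simulated data. Background correction with neqc was kept as an alternative.

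Members, gene lists, the nodule split and the tests were chosen with earlier results of these data known. Full values are given for the 4 members with the largest called fall, or rise, in each comparison with control and in Krt19-high minus Krt19-low nodules. Alternatives covered background, filters, probe choice, sets of 12 sample numbers, variance model, array weights and arrays left out. Promoters come from RefSeq (GRCr8); no protein sequences were used here.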

Additional observations from a re-analysis of the deposited data

Results flagged for a closer look

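For the 7 members given in full, 42 groups of 4 to 10 arrays were examined for a lowest or highest array far from its neighbours. The limit is one that chance meets in about 1 in 20 independent groups, and 5 values met it. The 7 members were read on the same arrays, so the groups are not independent and no excess over chance can be read from this. Of these, 3 were sample 29 among the aHCC: Mbl2 at 7.32, F10 at 8.18 and F11 at 7.18 on the log2 scale, each below the other 8. Control sample 27 was high for F10 at 11.27. Sample 2, a nodule titled KRT19-positive, was low for F12 at 11.64.

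For 17 members the difference between nodules titled KRT19-positive and KRT19-negative itself differed between samples 1 to 10 and samples 15 to 24, by the interaction of label and sample number in the limma fit (adjusted p under 0.05). This contrast is the same as that of Krt19-high against Krt19-low nodules, so it adds no separate evidence.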

How the results depend on the processing

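Counts are members called of 32. Calls over all features also moved with the setting, as the shares given above for sets, block and sample 29 show. A shift in a count is therefore not by itself particular to the members. Shares under neqc and array weights are not given here. For nodules titled KRT19-positive against control, the count of 8 became 5 with neqc, 0 with the sets of 12 as a block, 14 with array weights or without sample 29, and 22 and 2 within samples 1 to 12 and 13 to 24. For those titled KRT19-negative, 9 became 5, 2, 24 with array weights, 15 without sample 29, and 0 and 26 within the same sets. The label difference, 0, became 20 and 27 within those sets. For aHCC against control, 27 became 8 with the block, 4 within its set, and 10 with the block and without sample 29. Without sample 29 throughout, 23 became 10 with the block and 15 within the set. For aHCC against eHCC, 4 became 0 with the block, with or without sample 29, 14 with array weights and 11 without sample 29. For aHCC against nodules, 14 became 0 with the block, with or without sample 29, and 9 with array weights. Krt19-low nodules against control went from 0 to 1 with array weights, 2 within samples 13 to 24 and 3 without sample 29. Krt19-high against Krt19-low went from 17 to 26 with the block and without sample 29. Samples 15 to 19 against 20 to 24 went from 7 to 4 with neqc, 25 with array weights, and 15 without sample 29, with or without the block. The block without sample 29 was chosen after seeing the data. The causes of these shifts were not tested, except that aHCC meets eHCC and nodules in no set, so the block compares them only through controls.

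Arrays were also left out 1 at a time, only from the groups compared. This gave 6 to 9 for nodules titled KRT19-positive, 5 to 10 for KRT19-negative, 19 to 21 for adenoma, 20 to 23 for eHCC, 23 to 29 for aHCC and 20 to 27 for aHCC without sample 29. It gave 0 to 11 for aHCC against eHCC, 10 to 16 for aHCC against nodules, 19 to 20 for Krt19-high nodules, 11 to 18 for Krt19-high against Krt19-low, 3 to 10 for samples 1 to 5 against 6 to 10 and 2 to 7 for samples 15 to 19 against 20 to 24. It gave 0 to 0 for eHCC against adenoma, the labels, and Krt19-low nodules. Sample 29 lies in aHCC, but the fits share their spread, and leaving it out moved counts of other groups beyond these ranges. It gave 28 for adenoma, 29 lower and 1 higher for eHCC, 27 lower and 1 higher for Krt19-high nodules and 3 for Krt19-low nodules. For the 32 pairs of named member and comparison, 324 of the other alternative values stayed called, 24 did not and 0 reversed, and with 1 array left out 579 stayed called, 5 did not and 0 reversed. No paired analysis was possible because the labels do not tie lesions to animals and the sample numbers, being unique, give no pairing. Shared animals are therefore not excluded. Depth is not defined for arrays. The changes of Fgg, F2, Fgb and Plg, near the upper limit, and of dim members such as F7 may be understated, which was not tested.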
